A study of Mus musculus with 30 samples.

Results

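The kidney sets how much phosphate and calcium leaves the body and makes or destroys the active form of vitamin D. The 10 genes described here were chosen by name for these tasks, by a rule that uses no measured value but was set with earlier results of these data known. They are the phosphate transporter genes Slc34a1, Slc34a3, Slc20a1 and Slc20a2, the hormone co-receptor gene Kl, the vitamin D receptor gene Vdr, the vitamin D enzyme genes Cyp27b1 and Cyp24a1, and the calcium transport genes Trpv5 and Calb1. All 10 were found by symbol among the 41128 genes of the deposited kidney table, and all 10 were among the 15034 genes with enough counts to be tested.

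Kidney tissue of 16 male mice of the C57Bl6J background, 4 per group, were sequenced after 18 weeks of standard-fat diet (SFD) or high-fat diet (HFD), which began at 6 weeks of age. KO mice carried loxP sites in Egfr, the EGF receptor gene, and lost it in vascular smooth muscle cells through a tamoxifen-inducible Cre under the Smmhc (Myh11) promoter. WT mice had no loxP sites, but they also carried this Cre and also received tamoxifen (1 mg per day for 5 days, ending 7 days before HFD). The groups are called WT-SFD, WT-HFD, KO-SFD and KO-HFD. The total count per kidney ran from 16354880 to 28331314, with a median of 19544128. Levels are given as FPM, the fragments of a gene per 1000000 counted in a library after scaling with TMM factors, and each number of a mouse within its group (WT-SFD-1 to WT-SFD-4) is only a name.

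In the proximal tubule, phosphate is taken back from the filtrate by transporters in the brush border, mainly of the SLC34 family, and parathyroid hormone and FGF23 remove these transporters from the membrane. FGF23 acts through Klotho, the product of Kl, and it also lowers the formation of calcitriol, the active form of vitamin D, by the enzyme of Cyp27b1 and raises its breakdown by the enzyme of Cyp24a1. Calcitriol acts through the nuclear receptor of Vdr. In the distal tubule calcium enters through the channel TRPV5 and is carried through the cell by calbindin, the product of Calb1.

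Since Cre acts in smooth muscle, Egfr was not expected to report the genotype in renal tissue, where tubule cells keep the gene. Egfr was at 58.4, 39.1, 50.9 and 53.0 FPM in WT-SFD, 47.5, 36.9, 56.6 and 42.7 FPM in WT-HFD, 52.7, 46.7, 60.8 and 54.0 FPM in KO-SFD and 42.9, 45.5, 40.5 and 43.5 FPM in KO-HFD. The genotypes overlapped on both diets, with a log2 fold change of KO against WT of 0.09 on SFD (SE 0.132, adjusted p = 0.848 by the quasi-likelihood test of edgeR, with Benjamini-Hochberg adjustment here and throughout) and of -0.09 on HFD (SE 0.133, edgeR adjusted p = 1). The kidney libraries therefore do not check the genotype labels. The labelled tissue was checked with markers: all 13 proximal tubule markers were detected, with Acsm2 the most abundant at a mean of 3764 FPM over the kidneys.

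On HFD, Slc34a3 rose about 2-fold in both genotypes and Cyp24a1 rose in KO, while none of the other 8 genes passed the test for diet in either genotype. HFD was compared with SFD to ask what the diet did in each genotype. In WT, 1 of the 10 genes was called at an edgeR adjusted p under 0.05, against 0.911% of all genes tested (137 genes). It was higher, as were 0.778% of all genes, and none was lower, against 0.133%. In KO, 2 of the 10 were called, against 2.3% of all genes (346 genes). Both were higher, as were 1.53% of all genes, and none was lower, against 0.772%. With a stricter threshold of an adjusted p under 0.001, Slc34a3 was called in KO alone and Cyp24a1 in neither genotype. An unadjusted p under 0.05 was found for 4 of the 10 genes in WT, against 7.9% of all genes, and for 5 in KO, against 15.8%. The 4 HFD kidneys lay above the 4 SFD kidneys for 2 of the 10 genes, Slc34a3 and Cyp24a1, in each genotype, against 3.02% of all genes in WT and 5.02% in KO. They lay below them for none of the 10, against 1.99% of all genes in WT and 3.85% in KO. The median log2 fold change over the 10 genes was -0.05 in WT and 0.24 in KO, and that over all genes was -0.00398 and -0.00412.

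**Figure D1:**
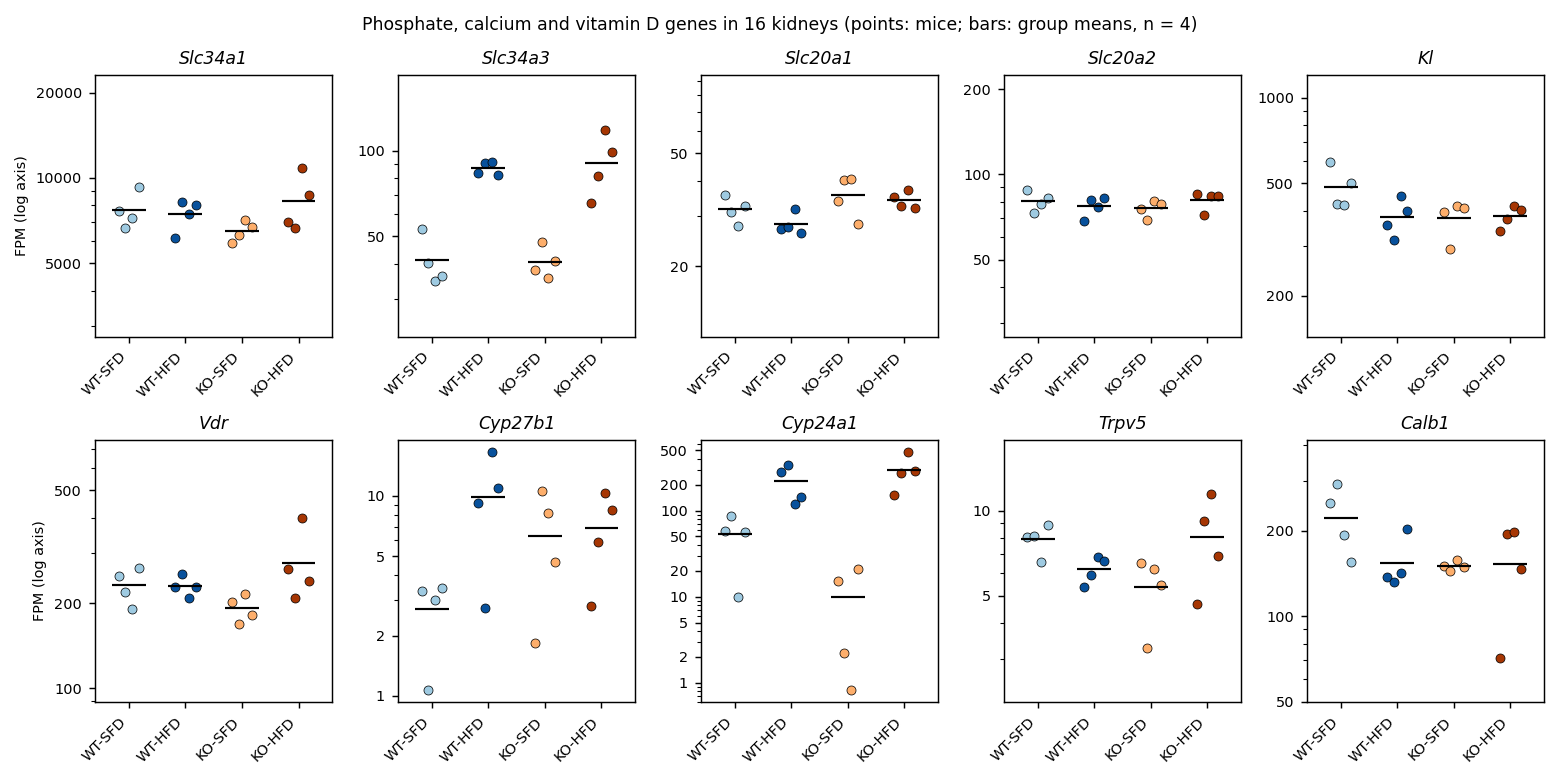
Level of each of the 10 genes in FPM (log axis) in the 16 kidneys, by group. Points are mice and bars are group means (n = 4); for Slc34a3 and Cyp24a1 all HFD points lie above all SFD points of the same genotype, and for the other 8 genes the diets overlap.

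Slc34a3 encodes the minor of the pair of brush border phosphate transporters of the SLC34 family in the mouse kidney. Its gene lies on the minus strand at chr2:25228898-25234364 (GRCm38, GENCODE vM21). Its level was 53.1, 40.4, 34.7 and 36.4 FPM in WT-SFD and 83.9, 90.7, 91.8 and 82.3 FPM in WT-HFD. In KO it was 38.1, 47.6, 35.7 and 40.9 FPM on SFD and 65.4, 81.5, 118 and 99.0 FPM on HFD. The lowest HFD kidney was above the highest SFD kidney within each genotype, and the widest spread was among the KO-HFD kidneys. Means on SFD and HFD were 41.1 ± 8.30 and 87.2 ± 4.77 FPM for WT kidneys, and 40.6 ± 5.13 and 91.1 ± 22.8 FPM for KO kidneys (SD, n = 4). Its log2 fold change was 1.08 in WT (SE 0.164, edgeR adjusted p = 0.0019) and 1.17 in KO (SE 0.164, edgeR adjusted p = 0.000827). The effect of diet differed between the genotypes by 0.08 on the log2 scale, with a 95% interval from -0.41 to 0.57 (edgeR adjusted p = 1).

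Slc34a1 encodes the major transporter of the pair and was the most abundant of the 10 genes. Its level was 7627, 6649, 7232 and 9308 FPM in WT-SFD, 6161, 8254, 7442 and 7997 FPM in WT-HFD, 5895, 6298, 7084 and 6738 FPM in KO-SFD and 6967, 6644, 10805 and 8721 FPM in KO-HFD. All groups overlapped, and the highest kidney was KO-HFD-3. The log2 fold change for HFD was -0.05 in WT (SE 0.163, edgeR adjusted p = 0.995) and 0.35 in KO (SE 0.163, edgeR adjusted p = 0.311). Per kilobase of exon, Slc34a3 made up 1.36%, 1.19%, 0.944% and 0.769% of the sum of Slc34a1 and Slc34a3 in WT-SFD and 2.63%, 2.13%, 2.39% and 2.00% in WT-HFD. In KO the shares were 1.27%, 1.48%, 0.989% and 1.19% on SFD and 1.83%, 2.37%, 2.13% and 2.20% on HFD. Every HFD kidney thus had a higher share of Slc34a3 than every SFD kidney, and Slc34a1 remained the bulk of the transcript of the pair in each.

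Slc20a1 and Slc20a2 encode phosphate transporters of another family, which most cell types express. Slc20a2 varied least of the 10 genes, between 68.6 and 87.8 FPM over the 16 kidneys, with group means from 76.1 to 81.3 FPM. Slc20a1 ran from 26.2 to 40.7 FPM, with group means from 28.1 to 35.8 FPM. Neither passed the test for diet, with log2 fold changes of -0.17 in WT and -0.07 in KO for Slc20a1 and of -0.06 and 0.10 for Slc20a2 (edgeR adjusted p from 0.634 to 0.976). Thus of the 4 phosphate transporter genes only Slc34a3 was called.

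Cyp24a1, on the minus strand at chr2:170482708-170497145, encodes the mitochondrial enzyme that starts the breakdown of calcitriol and is itself a well-known target of the vitamin D receptor. It was the most variable of the 10 genes. Its level was 58.7, 86.8, 10.0 and 55.7 FPM in WT-SFD and 280, 336, 120 and 145 FPM in WT-HFD. In KO it was 15.0, 2.21, 0.82 and 21.2 FPM on SFD and 151, 270, 483 and 291 FPM on HFD. The highest KO-SFD kidney was far below the lowest KO-HFD kidney, and the KO-SFD kidneys themselves ran from 0.82 to 21.2 FPM. The raw counts over the 16 kidneys ran from 16 to 7622. Means on SFD and HFD were 52.8 ± 31.8 and 220 ± 105 FPM for WT kidneys, and 9.80 ± 9.92 and 299 ± 137 FPM for KO kidneys (SD, n = 4).

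In KO the log2 fold change of Cyp24a1 was 4.93 (SE 0.815, 95% interval from 3.20 to 6.65, edgeR adjusted p = 0.00265). In WT it was 2.07 (SE 0.709, unadjusted p = 0.00994, edgeR adjusted p = 0.325), so that the change in WT was not called although the groups did not overlap. The interaction, which is the diet effect in KO minus that in WT, was 2.86 on the log2 scale (SE 1.00, 95% interval from 0.74 to 4.98, unadjusted p = 0.0113, edgeR adjusted p = 1), so a difference between the genotypes in the diet effect was not established. The gene overlaps the start of Pfdn4 on the opposite strand, and whether counting used strand is not given in the sources used here. Pfdn4 had group means from 8.90 to 9.62 FPM and log2 fold changes for HFD of 0.04 in WT and -0.06 in KO.

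**Figure D2:**
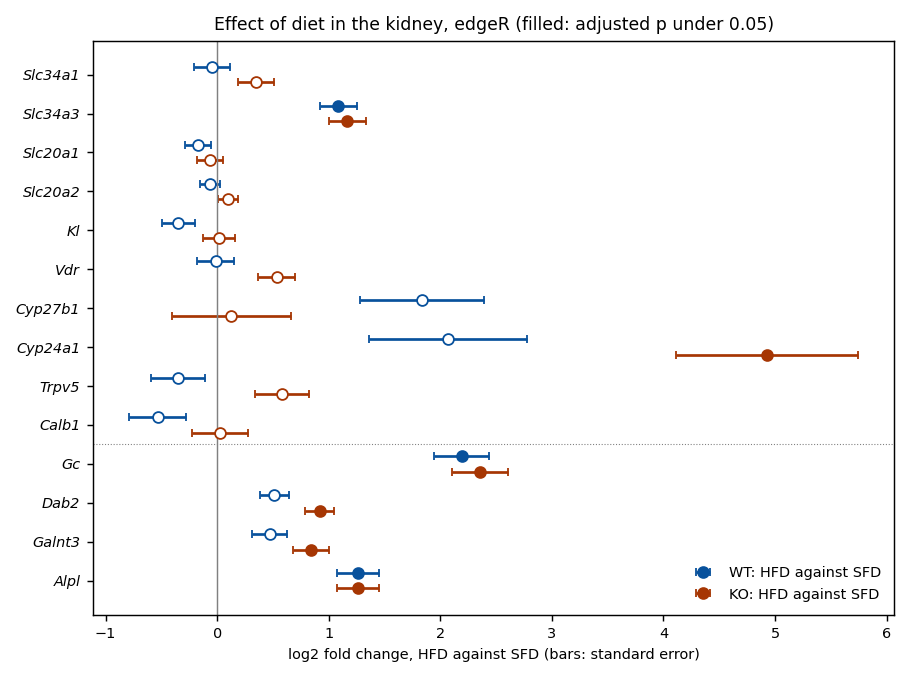
Log2 fold change of HFD against SFD for the 10 genes and, below the dotted line, for 4 further genes of the pathway, in WT (blue) and KO (orange-brown). Bars are standard errors and filled points have an edgeR adjusted p under 0.05; Slc34a3, Gc and Alpl are filled in both genotypes, and Cyp24a1, Dab2 and Galnt3 in KO only, where the difference between the genotypes did not pass the test.

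Cyp27b1, which encodes the enzyme that forms calcitriol, had the lowest mean level per length of the 10 genes in WT-SFD. Its level was 3.36, 1.07, 3.01 and 3.45 FPM in WT-SFD, 9.21, 2.76, 16.6 and 10.9 FPM in WT-HFD, 1.83, 10.5, 8.18 and 4.64 FPM in KO-SFD and 2.82, 5.88, 10.4 and 8.45 FPM in KO-HFD. In WT, 3 of the 4 HFD kidneys were above all SFD kidneys and WT-HFD-2 lay among them, while in KO the diets overlapped widely. The log2 fold change was 1.83 in WT (SE 0.555, unadjusted p = 0.00434, edgeR adjusted p = 0.209) and 0.13 in KO (SE 0.533, edgeR adjusted p = 0.93). With raw counts from 17 to 292, these values are among the least precise of the set.

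The ratio of Cyp24a1 to Cyp27b1 per kilobase of exon, breakdown to formation at the transcript level, was 38.6, 33.2, 33.6 and 24.9 in KO-HFD and 5.92, 0.152, 0.0723 and 3.30 in KO-SFD. In WT it was 12.6, 58.7, 2.40 and 11.7 on SFD and 22.0, 88.2, 5.23 and 9.60 on HFD. The diets were apart in KO and overlapped in WT. In KO-SFD-2 and KO-SFD-3 the ratio was below 1, with Cyp27b1 above Cyp24a1 per length, and these kidneys had the highest Cyp27b1 levels of their group.

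Vdr was at 248, 219, 190 and 267 FPM in WT-SFD, 227, 253, 208 and 228 FPM in WT-HFD, 202, 168, 216 and 182 FPM in KO-SFD and 264, 208, 400 and 239 FPM in KO-HFD. The level in KO-HFD-3 stood above all others, and KO-HFD-2 lay below the highest KO-SFD kidney. For Vdr the log2 fold change was -0.01 in WT (SE 0.167, edgeR adjusted p = 1) and 0.53 in KO (SE 0.167, unadjusted p = 0.00558, edgeR adjusted p = 0.12). Without KO-HFD-3 the value in KO was 0.31 (edgeR adjusted p = 0.295). DESeq2 gave 0.53 with an adjusted p of 0.0477, which is the only call among the 10 genes that DESeq2 added.

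Kl was at 593, 422, 420 and 500 FPM in WT-SFD, 355, 316, 451 and 400 FPM in WT-HFD, 395, 292, 415 and 407 FPM in KO-SFD and 339, 373, 416 and 402 FPM in KO-HFD. Each of the 4 WT-SFD kidneys was above the 4 KO-SFD kidneys, whereas WT-SFD and WT-HFD overlapped. The log2 fold change for HFD was -0.35 in WT (SE 0.144, unadjusted p = 0.0286, edgeR adjusted p = 0.532) and 0.02 in KO (SE 0.144, edgeR adjusted p = 0.965).

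Trpv5 encodes the apical calcium channel of the distal tubule and was present at 8.08, 8.10, 6.58 and 8.92 FPM in WT-SFD, 5.37, 5.92, 6.88 and 6.64 FPM in WT-HFD, 6.51, 3.29, 6.24 and 5.46 FPM in KO-SFD and 4.67, 9.21, 11.4 and 6.94 FPM in KO-HFD. Calb1 was at 250, 292, 193 and 155 FPM in WT-SFD, 138, 132, 142 and 204 FPM in WT-HFD, 151, 145, 157 and 149 FPM in KO-SFD and 71.5, 195, 199 and 147 FPM in KO-HFD. For both genes the diets overlapped in each genotype. The log2 fold change of Trpv5 was -0.35 in WT (edgeR adjusted p = 0.849) and 0.58 in KO (SE 0.241, unadjusted p = 0.0284, edgeR adjusted p = 0.251), and that of Calb1 was -0.53 in WT (SE 0.255, edgeR adjusted p = 0.639) and 0.03 in KO (edgeR adjusted p = 0.972).

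KO was compared with WT on each diet to ask what the deletion in smooth muscle did to these genes, and none of the 10 was called. On SFD, edgeR called 0 of the 10 (0.0133% of all genes, 2 genes), 5 had an unadjusted p under 0.05 (8.37% of all genes) and DESeq2 called 0. These 5 were Cyp24a1 with a log2 fold change of -2.42 (SE 0.744, edgeR adjusted p = 0.453), Cyp27b1 with 1.19, Trpv5 with -0.56, Calb1 with -0.56 and Kl with -0.36 (edgeR adjusted p from 0.556 to 0.595). The KO-SFD kidneys lay below the WT-SFD kidneys without overlap for 2 genes, Kl and Trpv5, against 2.09% of all genes, and above them for none, against 1.9%. On HFD, edgeR called 0 of the 10 (0.00665% of all genes, 1 gene), 1 had an unadjusted p under 0.05 (1.65% of all genes) and DESeq2 called 0. That gene was Slc20a1, with a log2 fold change of 0.28 (SE 0.117, unadjusted p = 0.0282, edgeR adjusted p = 1), and its 4 KO-HFD kidneys lay above the 4 WT-HFD kidneys, which held for 0.645% of all genes; the reverse held for none of the 10 and for 0.678% of all genes. The median log2 fold change of the 10 genes was -0.26 on SFD and 0.11 on HFD, beside 0.00109 and 0.00221 over all genes.

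The diet effect did not pass the test of a difference between the genotypes for any of the 10 genes or for any gene tested (0% called by edgeR). An unadjusted p under 0.05 for this interaction was found for 4 of the 10, against 3.23% of all genes, and DESeq2 called 0 of the 10. Beside Cyp24a1 these were Trpv5 (0.93 on the log2 scale, SE 0.339, unadjusted p = 0.0142), Vdr (0.55, SE 0.236, unadjusted p = 0.0337) and Cyp27b1 (-1.71, SE 0.766, unadjusted p = 0.0402), each with an edgeR adjusted p of 1. Without KO-HFD-3 the interaction was smaller for Vdr (0.3308), Trpv5 (0.7332) and Cyp24a1 (2.535), and further from 0 for Cyp27b1 (-1.955). The diet contrasts and the genotype contrasts of these genes share the same SFD kidneys, so they are not separate evidence.

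Compared per kilobase of exon, the WT-SFD means fell in the order Slc34a1 (1648 ± 244 FPM per kilobase), Kl (51.9 ± 8.79), Calb1 (45.9 ± 12.5), Vdr (40.9 ± 5.96), Slc34a3 (17.5 ± 3.52), Cyp24a1 (14.8 ± 8.92), Slc20a2 (13.0 ± 0.98), Slc20a1 (5.69 ± 0.60), Trpv5 (2.44 ± 0.30) and Cyp27b1 (1.06 ± 0.44; SD, n = 4). In each of the 16 kidneys Slc34a1 was above Kl, Slc20a2 above Slc20a1 and Slc20a1 above Trpv5. Kl, Calb1 and Vdr overlapped within groups, and in WT-SFD Cyp24a1 overlapped with both Slc34a3 and Slc20a2, which were themselves apart. Cyp24a1 moved most in this order: its mean was 83.9 ± 38.6 FPM per kilobase in KO-HFD, above each of the others except Slc34a1, and 2.75 ± 2.79 in KO-SFD, where the other genes but Trpv5 and Cyp27b1 were above it. By single kidneys Cyp24a1 overlapped with Kl, Vdr and Slc34a3 in KO-HFD, and with Slc20a1, Trpv5 and Cyp27b1 in KO-SFD. Over the 16 kidneys the highest level was 590 times the lowest for Cyp24a1, 15.5 times for Cyp27b1, 3.41 times for Slc34a3 and 1.28 times for Slc20a2.

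One kidney stood apart. KO-HFD-3 had the highest level of the 16 kidneys for 5 of the 10 genes, Slc34a1, Slc34a3, Vdr, Cyp24a1 and Trpv5. It also had the highest sum of the 13 proximal tubule markers (22870 FPM), the highest sum of the 6 distal convoluted tubule markers (1677 FPM) and the lowest sum of the thick ascending limb markers (3137 FPM; 4 of the 5 listed, since Kcnj1 lies on chromosome 9, where the tables hold no counts). Without this kidney the log2 fold change in KO was 1.02 for Slc34a3 (edgeR adjusted p = 0.00283) and 4.60 for Cyp24a1 (edgeR adjusted p = 0.00801). Both calls thus held without it. Of the values that were not called, that of Slc34a1 in KO was 0.20 without it (edgeR adjusted p = 0.516) and that of Trpv5 was 0.38 (edgeR adjusted p = 0.473), beside 0.35 and 0.58 with all kidneys.

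Of 73 other listed genes of phosphate, calcium, magnesium and vitamin D handling, 57 could be tested. In WT 2 rose on HFD, against 0.778% of all genes, and 0 fell, against 0.133%. In KO 4 rose, against 1.53% of all genes, and 0 fell, against 0.772%. The median log2 fold change over the 57 was -0.02 in WT and 0.08 in KO. For KO against WT and for the interaction, edgeR called 0 of the 57. Of all genes it called 0.0133% for KO against WT on SFD, 0.00665% on HFD and 0% for the interaction. An unadjusted edgeR p under 0.05 was found for 8 of the 57 for KO against WT on SFD (8.37% of all genes), 1 on HFD (1.65%) and 4 for the interaction (3.23%).

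The gene with the largest change was Gc, which encodes the vitamin D binding protein, the carrier of vitamin D metabolites in plasma that is made mainly in the liver. Gc was at 30.7, 29.8, 15.9 and 17.8 FPM in WT-SFD and 144, 93.8, 105 and 85.1 FPM in WT-HFD. In KO it was at 19.4, 23.9, 21.1 and 17.4 FPM on SFD and 61.4, 121, 120 and 117 FPM on HFD. The HFD kidneys were all above the SFD kidneys, at about 5 times their level. Its change on the log2 scale was 2.19 in WT (SE 0.25, edgeR adjusted p = 0.000418) and 2.36 in KO (SE 0.252, edgeR adjusted p = 0.000107).

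Dab2 encodes the adaptor that helps megalin and cubilin to take up filtered proteins, the vitamin D binding protein among them. It was at 301, 269, 286 and 311 FPM in WT-SFD, 419, 381, 471 and 394 FPM in WT-HFD, 240, 183, 215 and 271 FPM in KO-SFD and 364, 379, 505 and 470 FPM in KO-HFD. The diets did not overlap in either genotype. Its log2 fold change of 0.92 in KO was called (SE 0.132, edgeR adjusted p = 0.000933), and that of 0.51 in WT was not (SE 0.131, edgeR adjusted p = 0.094). DESeq2 gave an adjusted p of 0.00964 for Dab2 in WT. The genes of the receptors themselves, Lrp2 and Cubn, were not called.

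Alpl encodes tissue-nonspecific alkaline phosphatase, which splits pyrophosphate. It was at 246, 274, 208 and 238 FPM in WT-SFD, 573, 591, 566 and 586 FPM in WT-HFD, 189, 319, 344 and 236 FPM in KO-SFD and 460, 575, 875 and 699 FPM in KO-HFD, so the diets were apart in both genotypes. Its log2 fold change was 1.26 in WT (SE 0.192, edgeR adjusted p = 0.00198) and 1.26 in KO (SE 0.192, edgeR adjusted p = 0.0013). Galnt3, which encodes the enzyme that glycosylates FGF23 and protects it from cleavage, rose in KO by 0.84 on the log2 scale (SE 0.16, edgeR adjusted p = 0.00795), although KO-SFD-4 (45.8 FPM) was just above KO-HFD-1 (45.6 FPM). In WT its value was 0.47 (edgeR adjusted p = 0.313).

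**Figure D3:**
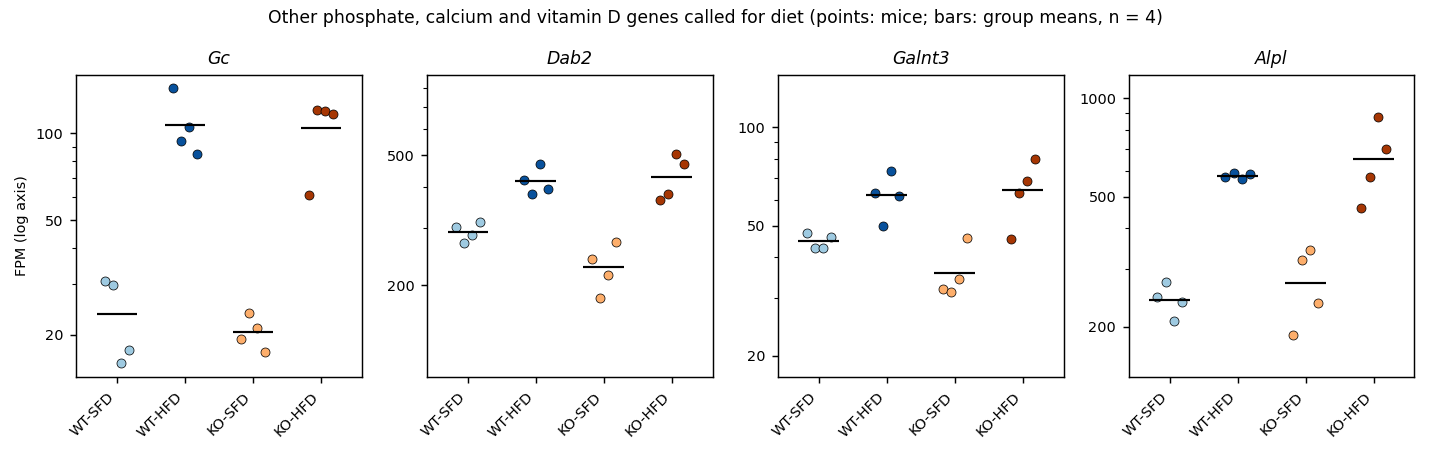
Levels in FPM (log axis) of the 4 further genes of phosphate, calcium and vitamin D handling that were called for diet in at least 1 genotype, in the 16 kidneys. Points are mice and bars are group means (n = 4); for Gc, Dab2 and Alpl all HFD kidneys lie above all SFD kidneys of the same genotype, and for Galnt3 the KO groups touch at 45.8 and 45.6 FPM.

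Several roles, each with few genes, held none called for diet by edgeR, against 0.911% of all genes in WT and 2.3% in KO. They were phosphate transport and its scaffold (9 tested genes), hormone receptors and signalling (8), calcium transport and binding (8), magnesium handling (9) and the paracellular route (4). At an unadjusted p under 0.05 there were, in this order, 1, 0, 1, 0 and 0 genes in WT, against 7.9% of all genes, and 1, 3, 2, 1 and 3 genes in KO, against 15.8%. The smallest p values among these in KO belonged to Calcr, the calcitonin receptor gene, with a log2 fold change of 1.30 (edgeR adjusted p = 0.0559) on raw counts of only 4 to 15 per kidney, and to the claudin gene Cldn3, with -0.58 (edgeR adjusted p = 0.0946). Over the 4 paracellular genes the median in KO was -0.49 on the log2 scale. The sum of the thick ascending limb markers, which include Umod and Slc12a1 and mark the segment of part of this route, was 7425 ± 275 FPM in KO-SFD and 4807 ± 1240 FPM in KO-HFD (SD, n = 4), and its part in these values was not tested. For KO against WT on SFD the smallest p belonged to Cnnm2, a magnesium handling gene, with -0.38 (SE 0.0999, unadjusted p = 0.00157, edgeR adjusted p = 0.453), and for HFD to the phosphate transporter gene Slc34a2, with -0.52 (unadjusted p = 0.0221, edgeR adjusted p = 1).

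8 of the 73 genes had a count of 0 in every kidney, among them Pth1r, the gene of the receptor for parathyroid hormone. 7 of these 8 lie on chromosomes 9 and X or on chromosome 8 beyond position 97565603, where the deposited tables hold no count for any gene in any of the 30 libraries of kidney and aorta. Their expression could therefore not be assessed here. The eighth, Gprc6a, lies on chromosome 10.

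The vitamin D receptor and its partner RXR bind DNA at a pair of hexamers, and the promoters of the set were searched for such letters. The hexamer was AGGTCA or AGTTCA, and also GGGTCA or GGTTCA, on either strand, and the pair was 2 hexamers in the same direction 3 bases apart. RefSeq (GRCm38.p6) promoters of 300 bases, from 250 before to 50 after the start of transcription, were matched for 7 of the 10 genes and not for Slc20a2, Cyp24a1 and Calb1. The pair was found in none of the 7 and in 13 of all 32851 promoters (0.0396%). A single hexamer is common, in 43.7% of all promoters, and was held by at least 1 listed promoter of each matched gene of the set but Trpv5. Slc34a3 had 1 on each strand close to its start, which are shown here 5′ to 3′ in the direction of the gene because this was the gene of the set called in both genotypes. Capitals mark the hexamer, read on the strand of the gene and on the opposite strand, at positions -33 and -6 before the start. Both stretches lie within the first exon of the coding GENCODE transcript Slc34a3-201 (chr2:25234180-25234364), which begins further upstream.
Slc34a3 chr2:25234252-25234277, minus strand: cacacatagcAGGTCAtgtgcgcacc
Slc34a3 chr2:25234235-25234250, minus strand: gacagatcttTGACCT

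Gc, the most changed gene of the wider pathway, had no vitamin D receptor hexamer in its promoter. It had 1 match to GTTAAT, part of the binding motif of the hepatocyte nuclear factor HNF1, which is expressed in the liver and the proximal tubule. GTTAAT was found on either strand in 7.1% of all promoters, among them that of Slc34a1 and 1 listed promoter each of Alpl and Dab2. It was absent from the other listed promoter of Alpl and of Dab2. It was also absent from the promoters of Slc34a3, Slc20a1, Kl, Vdr, Trpv5, Cyp27b1 and Galnt3. The 250 bases before the start of Gc are given 5′ to 3′, with this match at position -52 in capitals.
Gc chr5:89457899-89458148, minus strand: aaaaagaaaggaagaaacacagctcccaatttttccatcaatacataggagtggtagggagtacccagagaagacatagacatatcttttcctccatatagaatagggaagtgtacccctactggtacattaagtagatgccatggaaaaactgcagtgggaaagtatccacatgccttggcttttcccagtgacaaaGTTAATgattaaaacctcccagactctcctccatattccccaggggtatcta
These matches describe letters only. Binding was not measured in these samples.

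Over the 16 kidneys, the 3 genes whose levels were most like those of Slc34a3, by Pearson's r of log2(FPM + 1), were Slc5a2 (r = 0.971), which encodes the sodium-glucose cotransporter of the early proximal tubule, Prodh2 (r = 0.962), a proline and hydroxyproline catabolism gene, and Gc (r = 0.962). Slc5a2 rose on HFD by 1.21 on the log2 scale in WT (edgeR adjusted p = 0.00568) and by 1.54 in KO (edgeR adjusted p = 0.000625). Prodh2 rose by 1.71 in WT and 1.85 in KO (edgeR adjusted p = 0.000515 and 0.000159). The 3 genes most like Cyp24a1 were the transcription factor gene Etv1 (r = 0.944), the creatine synthesis gene Gatm (r = 0.924) and the organic anion transporter gene Slc22a8 (r = 0.921). Etv1 rose in both genotypes, and Gatm and Slc22a8 rose in KO, by 1.45 and 1.44 on the log2 scale (edgeR adjusted p = 0.00459 and 0.000433). All these genes share the diet groups and the libraries, and by Spearman's rho none of the 3 stayed among the first 3 for either gene.

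The 13 proximal tubule markers summed to 18580 ± 2313 FPM in WT-SFD, 18210 ± 2107 FPM in WT-HFD, 17640 ± 1209 FPM in KO-SFD and 18620 ± 3374 FPM in KO-HFD (SD, n = 4). The summed markers of the segment that expresses Slc34a1 and Slc34a3 thus overlapped between the diets, but its members did not move alike. On HFD 1 of the 13 rose in WT, Slc5a2, against 0.778% of all genes, and 4 in KO, Slc5a2, Slc22a8, Slc5a12 and Slc4a4, against 1.53%. None was called lower, while 6 of the 13 in WT and 4 in KO had a log2 fold change below 0. Acsm2, the most abundant, was at 3707 to 5673 FPM in WT-SFD and 2377 to 3654 FPM in WT-HFD, without overlap, with a log2 fold change of -0.48 in WT (edgeR adjusted p = 0.316) and -0.30 in KO (edgeR adjusted p = 0.399). In bulk tissue, fewer cells of a type and less RNA per cell cannot be told apart. The 6 distal convoluted tubule markers, from the segment of Trpv5 and part of Calb1, summed to 1273, 1228, 1104 and 1369 FPM in WT-SFD, WT-HFD, KO-SFD and KO-HFD, and 2 of them, Slc12a3 and Pvalb, rose on HFD in KO, against 1.53% of all genes. Wnk4 of the same list was lower without overlap on HFD in both genotypes but was not called, with log2 fold changes of -0.32 in WT (edgeR adjusted p = 0.263) and -0.39 in KO (edgeR adjusted p = 0.0516). Of the 7 connecting tubule and principal cell markers, Hsd11b2 lies in the part of chromosome 8 without counts, and the other 6 summed to 1279, 887, 1468 and 1091 FPM. Their part in the values of Trpv5 and Calb1 was not tested.

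**Figure D4:**
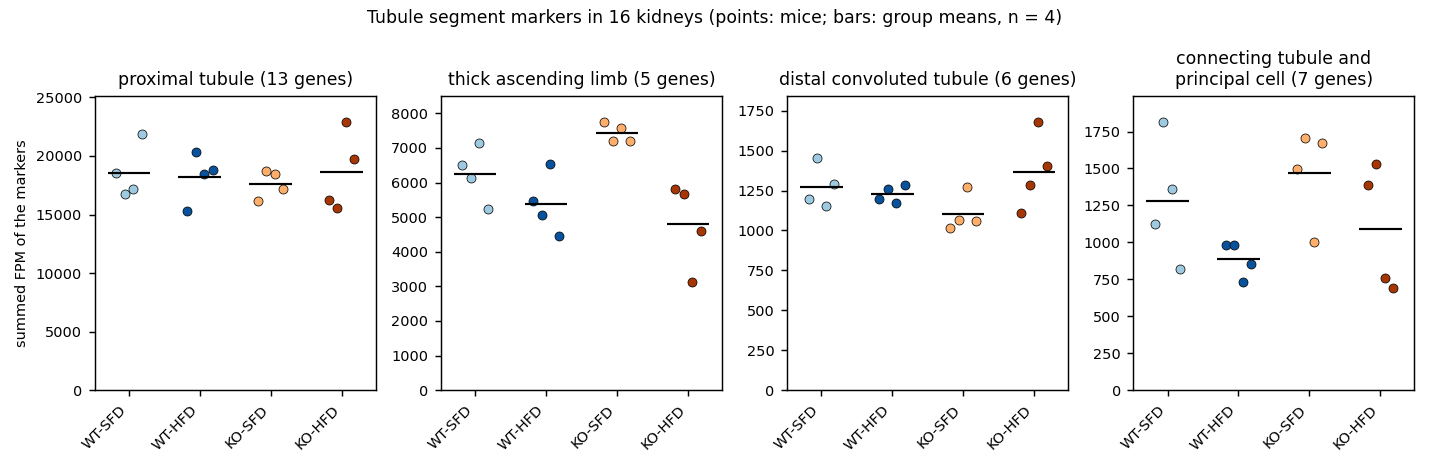
Summed FPM of the markers of 4 tubule segments in the 16 kidneys, on axes that start at 0. Points are mice and bars are group means (n = 4); the proximal tubule sum overlaps between all groups, and the thick ascending limb sum is higher in each KO-SFD kidney (7188 to 7738 FPM) than in each KO-HFD kidney (3137 to 5824 FPM).

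Markers of other tissues that a kidney sample could carry were also summed. The 5 fat markers were at 64.9 ± 60.0, 23.2 ± 9.38, 139 ± 160 and 39.3 ± 24.9 FPM in WT-SFD, WT-HFD, KO-SFD and KO-HFD (SD, n = 4). Lep rose in KO, while the other 4, Adipoq, Plin1, Cidec and Cfd, had log2 fold changes from -3.80 to -0.67 there and were not called. In KO-HFD, Lep was at 17.2 FPM in KO-HFD-3 and 1.74 to 2.66 FPM in the others. No fat marker was called in WT. There Lep was also higher on HFD without overlap (0 to 1.57 FPM on SFD, 2.39 to 7.14 FPM on HFD; 3.02% of all genes). Cfd was lower without overlap (6.51 to 73.0 FPM on SFD, 1.14 to 5.00 FPM on HFD; 1.99% of all genes). The sum in KO-SFD rested on KO-SFD-4 (360 FPM), without which its mean was 65.2 FPM. Adrenal cortex markers were at 2.14 to 3.30 FPM with Cyp11b1 and Cyp11b2 at 0, and parathyroid and thyroid markers at 0.653 to 0.953 FPM. Of the 5 injury markers, 4 were tested and only Sox9 was called for diet. It rose on HFD in WT by 2.21 and in KO by 2.89 on the log2 scale (edgeR adjusted p = 0.0101 and 0.00118), against 0.778% and 1.53% of all genes. Its SFD levels were low, at 0.188 to 0.922 FPM in WT and 0.256 to 0.492 FPM in KO. Its raw counts ran from 3 to 76. The 5 summed to 12.3, 19.6, 14.2 and 19.7 FPM in WT-SFD, WT-HFD, KO-SFD and KO-HFD. Vcam1 was higher on HFD without overlap in WT, at 6.07 to 9.01 FPM on SFD and 9.29 to 13.3 FPM on HFD, but overlapped in KO. Mean Havcr1 went the other way in WT, from 1.31 to 0.857 FPM, on raw counts of 6 to 47 over the kidneys. Of the WT-SFD kidneys, WT-SFD-2 was at 2.64 FPM and the others at 0.488 to 1.30 FPM. No gene was called for diet in the lists of thick ascending limb, principal cells, intercalated cells, podocytes, endothelium, leucocytes, fibroblasts, smooth muscle, adrenal cortex, urothelium, parathyroid and thyroid, or blood, of which Cdh5, Upk2 and Alas2 lie in the regions without counts. Of all genes 0.911% were called in WT and 2.3% in KO, so no call in lists this short says little. None of the 5 podocyte markers was called for genotype either, but for KO against WT on SFD all 5 had a log2 fold change below 0 with an unadjusted p under 0.05 (8.37% of all genes), 3 of them without overlap (2.09% of all genes), and the median log2 fold change was -0.49. For HFD in KO all 5 were above 0, 4 with an unadjusted p under 0.05 (15.8% of all genes), with a median of 0.47. Their sum was 266 ± 39.2, 278 ± 41.9, 196 ± 18.4 and 262 ± 45.2 FPM in WT-SFD, WT-HFD, KO-SFD and KO-HFD (SD, n = 4), with Podxl the most abundant and none at 0, and their part in the values of the 10 genes was not tested. Other lists without a call were also one-sided, and examples follow. For HFD in WT, the 6 tested intercalated cell and 6 principal cell markers were all below 0 (medians -0.31 and -0.32). The 6 leucocyte markers were all above 0 (median 0.349). In KO 4, 4 and 5 of these 6 went the same way. For KO against WT on SFD the 4 tested smooth muscle markers were all above 0 (median 0.245), 2 with an unadjusted edgeR p under 0.05. For the same contrast the 5 fibroblast markers were all above 0 (median 0.337). For HFD in WT they were also all above 0 (median 0.207), and in KO 2 of the 5 were. For HFD the 4 tested thick ascending limb markers were all below 0 in WT and KO (medians -0.204 and -0.658). In KO 3 of these had an unadjusted edgeR p under 0.05 (15.8% of all genes). The 4 smooth muscle markers were also all below 0, and the 4 tested blood markers all above 0. The part of these lists was not tested either.

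For comparison, 14 aortae of the same design, 3 or 4 per group, were scaled on their own and set beside the kidneys without a test. Some aortae carry the same animal number in their title as a kidney of the same group. Slc34a3, Cyp24a1 and Trpv5 had a count of 0 in every aorta, and Slc34a1 had at most 2 counts. Slc20a1 and Slc20a2, with means of 19.7 and 46.3 FPM, were the members of the set with clear expression in the aorta.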

How the data were processed

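Kidney reads were clipped and trimmed by the sequencing company; the submitters' processing notes name cutadapt, which the methods describe for the aortae. The authors aligned reads to GRCm38/mm10 with TopHat, used featureCounts for counting by gene and BiomaRt for annotating genes, and deposited the raw counts with 1 column per animal; all columns were mapped to samples (0 left over). The gene models and strand setting used in counting are not given in the sources used here. Sample groups came from the genotype and diet labels, and within a tissue each column is a separate mouse. No pair of the 120 pairs of kidneys was a copy (smallest chi-square per gene 9.55). Counts were scaled by TMM, filtered by filterByExpr and tested with edgeR 4.0.16 (glmQLFit, glmQLFTest; R 4.3.3) in 1 fit of the 16 kidneys, adjusted over 15034 genes by the Benjamini-Hochberg method and called at an adjusted p under 0.05. Exon lengths came from GENCODE vM21, which held 40254 of the 41128 genes. Named were the 10 genes, Egfr, pathway genes called or with the 3 smallest p values in a contrast, listed markers, listed genes at 0 and the 3 genes most alike to each called member; Prodh2, Etv1 and Gatm entered by likeness alone. Pfdn4 was added for its overlap, and Calcr, Cldn3, Lrp2 and Cubn were named after their values were seen. The members, lists and motifs were chosen with earlier results of these data known, and the HNF1 motif and printed promoters after these results. Alternatives were DESeq2 1.42.0, RLE factors, library totals without TMM, no low count filter, fits of only the groups compared, an adjusted p under 0.001, Spearman's rho and leaving out each library.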

Additional observations from a re-analysis of the deposited data

Results flagged for a closer look

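Within each of the 40 combinations of gene and group, the highest or lowest of the 4 kidneys was compared with the others by Dixon's criterion, which flags about 5% of groups by chance, and 3 were flagged. Slc20a2 was at 72.11 FPM in KO-HFD-2, below the other KO-HFD kidneys at 83.82 to 85.00 FPM. Kl was at 292.2 FPM in KO-SFD-2, below the other KO-SFD kidneys at 395.4 to 414.8 FPM. Calb1 was at 203.6 FPM in WT-HFD-4, above the other WT-HFD kidneys at 131.9 to 141.9 FPM. None of these genes was called for diet or genotype.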

How the results depend on the processing

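Of 794 values recomputed for 38 gene results, 778 kept their direction and their side of the threshold of 0.05, 0 lost and 2 gained a call (Dab2 in WT and Vdr in KO, both with DESeq2), and 14 changed sign, all of them values that were not called. Of these, Vdr in WT was 0.002436 with library totals, and leaving out 1 library at a time gave -0.11 to 0.05729 for Slc34a1 and -0.10 to 0.06199 for Vdr in WT, and in KO -0.17 to 0.001159 for Slc20a1, -0.08565 to 0.07256 for Kl, -0.18 to 0.49 for Cyp27b1 and -0.13 to 0.26 for Calb1. Members called were 0 in WT and 1 in KO at an adjusted p under 0.001, where the calls of Slc34a3 in WT and Cyp24a1 in KO were lost, and 1 and 2 without any single library; those without a call stayed at 0. Over all genes, 23 in WT, 48 in KO, 0 for KO against WT on SFD and 0 on HFD were called at an adjusted p under 0.001, and DESeq2 called 263, 695 and 26, and 1 for the interaction. A fit of only the groups compared called 228 in KO. For KO against WT on SFD, 1 was called with library totals and 4 without the low count filter. Leaving out 1 library gave 92 to 136 in WT, 196 to 403 in KO (196 without KO-SFD-2, 207 without KO-HFD-3 and 197 without KO-HFD-4), 0 to 4 for KO against WT on SFD, 0 to 1 on HFD and 0 for the interaction. For Slc34a3 these log2 fold changes were 1.01 to 1.23 in WT, and 1.02 to 1.30 in KO. For Cyp24a1 they were 1.72 to 2.42 in WT (adjusted p from 0.2 to 0.606), and 4.54 to 5.62 in KO (adjusted p from 0.00148 to 0.0111). Its values for KO against WT on SFD ran from -3.115 (without KO-SFD-4) to -2.038 (without KO-SFD-3). Its interaction ran from 2.476 to 3.554 without the same kidneys, in reverse order. KO-SFD-4 had the highest (21.2 FPM) and KO-SFD-3 the lowest (0.818 FPM) Cyp24a1 level of KO-SFD, a group that both contrasts use. Why these kidneys differed was not tested. No paired analysis was possible because the labels give no replicate numbers shared by the groups. Cyp27b1, Trpv5, Calcr, Sox9, Havcr1 and the lowest Cyp24a1 levels rest on few counts, and with 4 kidneys a group smaller changes may have been missed.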
